A study of Mus musculus with 21 samples.

Results

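The genes described here encode the receptors through which haematopoietic growth factors act on myeloid cells, and were measured as messenger RNA in mouse acute myeloid leukaemia cells. They were chosen by symbol: Csf1r, Csf2ra, Csf2rb, Csf2rb2, Csf3r, Flt3, Kit and Il3ra. All 8 had a row in each of the 3 expression tables of the series, among 16787 rows named in at least 1 table. Csf1r, Flt3 and Kit are related receptor tyrosine kinases, for macrophage colony-stimulating factor, Flt3 ligand and stem cell factor. Csf3r binds granulocyte colony-stimulating factor and signals as a pair of identical chains. Csf2ra and Il3ra are the ligand-binding alpha chains for granulocyte-macrophage colony-stimulating factor and interleukin-3, and they signal with a common beta chain, Csf2rb. Mice have a further beta chain, Csf2rb2, that serves interleukin-3 alone. The cytokine receptors have no kinase of their own and work through JAK kinases and STAT5, while the tyrosine kinases feed the RAS-ERK and PI3-kinase pathways. In normal blood formation, Kit and Flt3 mark stem and progenitor cells, and Csf1r and Csf3r mark the monocytic and granulocytic branches.

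The series held 3 experiments, with 21 libraries in 8 groups. Murine leukaemia cells transformed by the flag-tagged fusion NUP98-NSD1 received DMSO, UNC1999 or JQEZ5, each labelled 3 µM, over 4 days (3 libraries each). UNC1999 and JQEZ5 are small-molecule inhibitors of PRC2, the complex that methylates lysine 27 of histone H3. NUP98-NSD1 cells also received pLKO.1-puro lentivirus, either empty (shEV) or with a short hairpin RNA against Kdm5b (shKdm5b), and puromycin selection (3 libraries each). Kdm5b removes methyl groups from lysine 4 of histone H3. MLL-AF9 cells, transformed by another fusion, received MSCV-neo retrovirus, either empty (EV) or with Kdm5b as wild type (WT) or as the demethylase-dead mutant H499A (2 libraries each). The labels name no strain, age or clone, the control of the hairpin was an empty vector, and each fusion was given as 1 cell line. The medium of all groups held murine stem cell factor, the ligand of Kit, and no other growth factor is named. Nothing in the labels says that replicates were separate cultures, so p-values measure the spread between libraries, which may be technical.

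Depth recovered from the deposited values was 12812646 to 18928764 reads in the inhibitor table, 21273211 to 34813867 reads in the knockdown table and 17341257 to 19973218 reads in the overexpression table. In the knockdown, depth moved with the group: 31294271 to 34813867 reads in shEV and 21273211 to 29550291 reads in shKdm5b. Its shKdm5b replicate 1 stood apart: the chi-square of its counts against the other 2 libraries of its group, divided by the degrees of freedom, was 16.0 and 17.3. It was 6.41 between those 2 and 2.18 to 2.70 among the shEV libraries. Between the 2 WT libraries it was 9.52, against 1.79 in EV and 1.53 in H499A, and tests pooled the spread over these groups. In the inhibitor table it was 2.75 to 8.66, highest between UNC1999 replicates 1 and 3. UNC1999 replicate 3 had 294 genes at 0 reads, against 108 and 129 in replicates 1 and 2. The 10 defining genes of myeloid leukaemia cells were present in all tables. Defining genes of erythroid, mast, T, B and stromal cells (Alas2, Cpa3, Cd3e, Pax5 and Col1a1 among them) had no row in any table. Other genes of the same lists had rows: in EV cells Tfrc of the erythroid list was at 10586 normalised counts, Gata2 of the mast list at 1408, Nkg7 of the T and NK list at 309, Cd79b of the B list at 323 and Pecam1 of the stromal and endothelial list at 3860. Kdm5b, which checks the labels, was at 74.5 ± 17.8 normalised counts in shEV and 28.7 ± 5.44 in shKdm5b (SD, n = 3; limma adjusted p = 0.00401 in the fit of all genes). In MLL-AF9 cells it was at 121 ± 9.89 in EV, 294 ± 21.5 in H499A and 1413 ± 4.48 in WT (SD, n = 2), so the counts of the wild type and mutant groups were not at the same level. The species of the introduced Kdm5b is not given in the sources used here, and reads were counted for the mouse gene, so these counts may not measure it fully. A normalised count is a read count scaled to the other libraries of its table. Per-length levels (RPKM, read counts scaled to gene length and library depth) are used wherever genes or tables are set side by side.

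Coordinates are those of GRCm38 (GENCODE M21). Csf2rb (chr15:78325752-78353847, plus strand) and Csf2rb2 (chr15:78282507-78305721, minus strand) are neighbours, and Kit (chr5:75574916-75656722) and Flt3 (chr5:147330741-147400489) share chromosome 5. Csf3r lies at chr4:126024550-126044440, Il3ra at chr14:14346275-14356011 and Csf2ra at chr19:61223957-61228429. Exons of Csf1r overlap exons of Hmgxb3 on the opposite strand, and exons of Il3ra overlap the antisense gene Gm48860. Whether the counting used strand is not given in the sources used here, so reads of these partners cannot be told apart.

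The beta chain genes are near-copies, which bears on how their reads could be assigned. The longest open reading frames of a coding transcript of each were 95.2% identical over 2631 aligned bases, and 28.0% of the 31-base words of the Csf2rb transcripts also occur in those of Csf2rb2. Their longest identical stretch ran over 242 bases. The 60 bases in which they differ most are shown because only reads over such positions separate the pair. Capitals mark the 13 bases that differ, and the stretch starts at base 304 of the Csf2rb frame and base 307 of the Csf2rb2 frame.
Csf2rb: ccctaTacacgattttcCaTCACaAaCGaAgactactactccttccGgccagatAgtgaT
Csf2rb2: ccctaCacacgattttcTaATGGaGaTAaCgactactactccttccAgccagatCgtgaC
The separate values of the pair are therefore uncertain where reads were shared, and their summed counts are given beside them.

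Promoter sequence from RefSeq (GRCm38.p6) was found for 6 of the 8 members, all but Csf1r and Csf2rb. Below are the 250 bases before the start site of Csf2rb2, Csf2ra and Csf3r, all higher in WT than in EV cells, and of Flt3, which was lower. Among the members not shown, Il3ra was also higher in WT and its window held no GAGGAA, and Kit was lower and held 1 match. Capitals mark the PU.1 core GAGGAA on either strand (TTCCTC where it lies on the other strand). PU.1 is the myeloid master regulator encoded by Spi1.
Csf2rb2 (chr15:78305722-78305971, minus strand): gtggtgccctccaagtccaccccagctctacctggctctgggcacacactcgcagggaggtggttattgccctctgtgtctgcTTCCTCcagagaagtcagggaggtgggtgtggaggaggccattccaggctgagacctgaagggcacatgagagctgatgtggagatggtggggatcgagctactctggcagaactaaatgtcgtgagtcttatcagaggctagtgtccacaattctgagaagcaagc
Csf2ra (chr19:61228419-61228668, minus strand): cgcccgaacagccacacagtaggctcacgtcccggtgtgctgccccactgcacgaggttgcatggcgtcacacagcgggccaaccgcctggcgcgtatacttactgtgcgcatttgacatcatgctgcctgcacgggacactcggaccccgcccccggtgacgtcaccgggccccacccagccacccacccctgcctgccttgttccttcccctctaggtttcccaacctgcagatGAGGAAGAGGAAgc
Csf3r (chr4:126024409-126024658, plus strand): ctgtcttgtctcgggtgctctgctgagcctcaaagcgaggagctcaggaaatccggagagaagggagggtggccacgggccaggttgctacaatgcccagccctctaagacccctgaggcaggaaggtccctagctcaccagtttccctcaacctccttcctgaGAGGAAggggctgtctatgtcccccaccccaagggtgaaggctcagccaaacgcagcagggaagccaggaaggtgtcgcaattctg
Flt3 (chr5:147400490-147400739, minus strand): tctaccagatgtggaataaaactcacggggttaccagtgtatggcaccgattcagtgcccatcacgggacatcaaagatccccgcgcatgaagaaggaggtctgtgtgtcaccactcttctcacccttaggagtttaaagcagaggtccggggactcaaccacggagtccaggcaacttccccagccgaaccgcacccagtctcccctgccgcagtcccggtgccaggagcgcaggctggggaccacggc
Csf2ra held GAGGAA in tandem, 14 and 8 bases before the start, Csf3r held it 86 bases before and Csf2rb2 167 bases before. Csf2rb2 held a further match 29 bases after the start, and Kit held 1 match 223 bases before the first of its 2 listed starts. In the full windows, which also include 50 bases after the start, GAGGAA occurred in 28.3% of 27025 promoters. The RUNX core TGTGGT (16.9% of promoters) and the GATA core AGATAA (11.4%) were in none of the members' windows. The C/EBP core TTGCNNAA (10.8%) was only in that of Il3ra, 134 bases before the RefSeq start, which lies inside the GENCODE gene and was not matched to a GENCODE transcript. No matches of different motifs overlapped. Only the letters given here were searched, on both strands, and other forms of these binding sites were not. The window of Csf2rb2 held 3 CpG sites and that of Csf3r 9, against 18 in Flt3, 23 in Csf2ra, 35 in Il3ra and a median of 7 over all promoters.

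Per-length levels placed Csf1r first among the members in 6 of the 8 groups and Il3ra or Flt3 last in all 8. Csf1r had the widest absolute range, from 16.3 ± 1.69 RPKM in EV (SD, n = 2) to 133 ± 2.14 in UNC1999 (SD, n = 3). Its order over groups was UNC1999, JQEZ5 (86.1), DMSO (76.1), WT (71.7), H499A (44.9), shEV (35.9), shKdm5b (28.2) and EV, with no overlap between neighbours. Flt3 was at 12.1 ± 0.45 in EV, 6.34 ± 0.18 in H499A and 4.24 ± 0.11 in WT. In NUP98-NSD1 cells, Flt3 was at 0.0879 or less in every group mean. Fusion and table cannot be told apart in these differences, since MLL-AF9 cells occur in 1 table only and no test was run across tables.

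Kit, the receptor for the factor in the medium, was highest in shKdm5b (34.6 ± 4.45 RPKM) and shEV (33.1 ± 0.83), whose libraries overlapped. It followed at 26.0 in EV, 20.9 in H499A and 20.8 in WT, the last 2 overlapping, and at 17.2 in JQEZ5, 14.9 in DMSO and 14.2 in UNC1999, again with the last 2 overlapping. The NUP98-NSD1 controls thus differed for Kit (33.1 in shEV, 14.9 in DMSO) and for Csf1r (35.9 in shEV, 76.1 in DMSO), although they carry the same fusion.

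Csf3r had the smallest ratio of highest to lowest group mean, from 20.3 in EV to 42.6 in WT. Csf2ra lay between 28.2 and 32.7 in the 5 NUP98-NSD1 groups, which overlapped from neighbour to neighbour, and between 6.93 and 13.5 in the 3 MLL-AF9 groups. Csf2rb ran from 13.9 in shEV to 73.3 in UNC1999 with no overlap between neighbours in its order. Csf2rb2 ran from 2.68 in shKdm5b to 28.1 in UNC1999. Il3ra stayed low, from 0.643 ± 0.18 in shKdm5b to 4.35 ± 0.08 in WT.

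**Figure D1:**
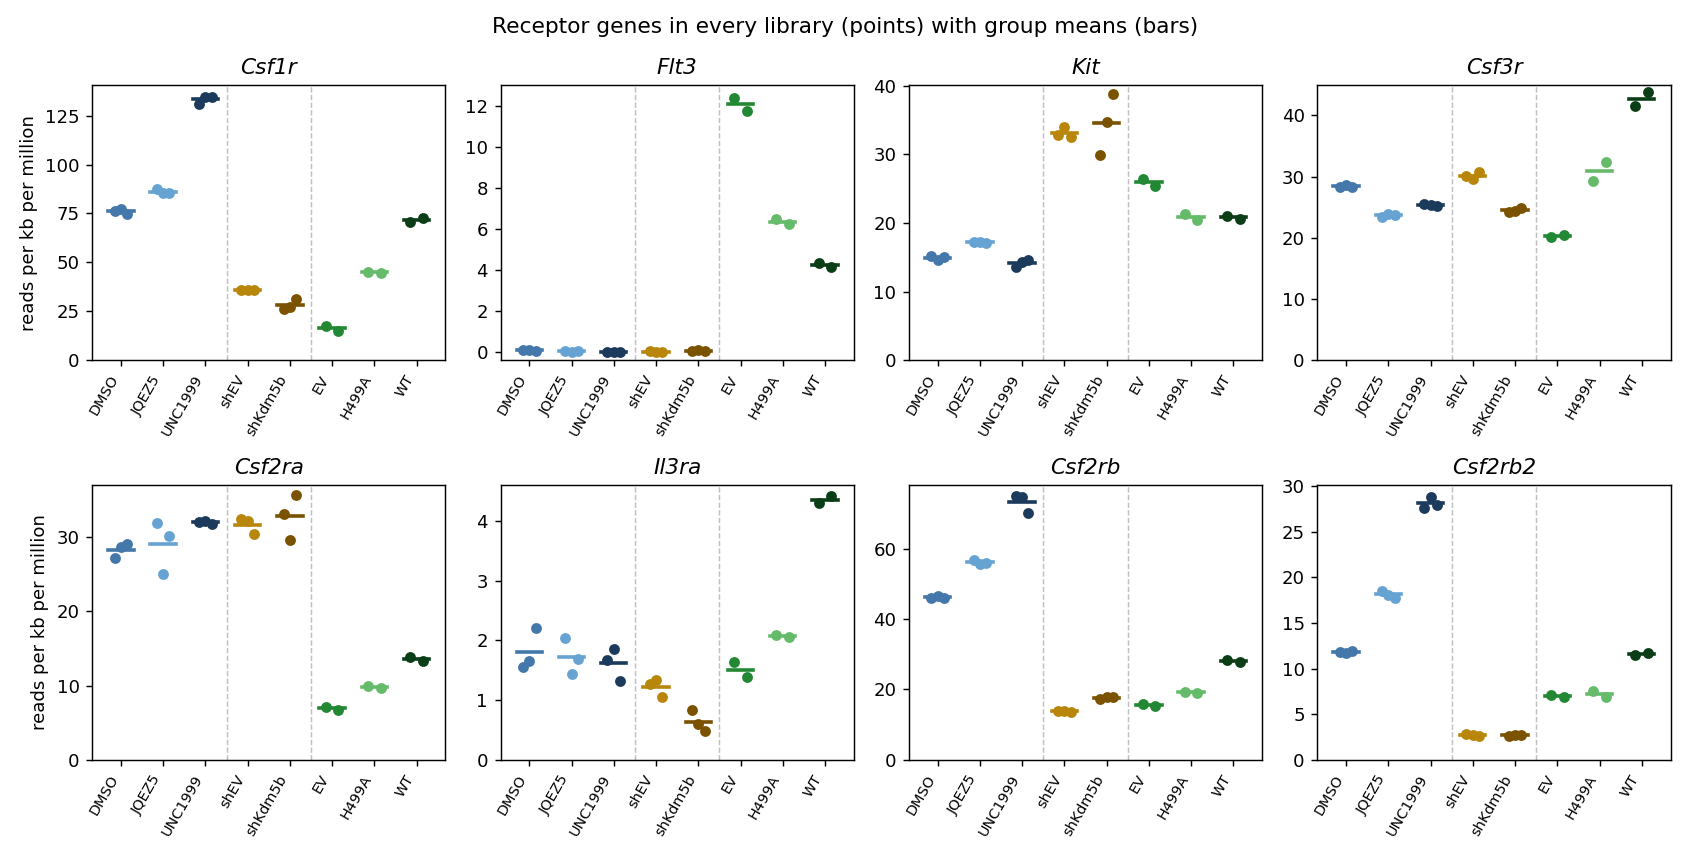
Per-length levels of the 8 receptor genes (RPKM) in each library of the 8 groups. Points are libraries. Group means of Csf1r run from 16.3 in EV to 133 in UNC1999, and those of Flt3 are at 4.24 or above in the MLL-AF9 groups and at 0.0879 or below in the NUP98-NSD1 groups.

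The first comparison asked what PRC2 inhibition did to the receptors in NUP98-NSD1 cells. Under UNC1999, Csf1r, the macrophage growth factor receptor, and both beta chains rose by 1.66-fold to 2.48-fold, and Csf2ra rose by 1.18-fold. Csf3r fell slightly, and Kit and Il3ra did not pass the test. Of the 7 members tested, 4 rose and 1 fell, where 47.9% of all 10694 tested genes were called (23.9% higher, 24% lower) and the libraries of the groups did not overlap for 55.1%. Under JQEZ5 Csf1r, Csf2rb, Csf2rb2 and Kit rose and Csf3r fell, where 23.6% of genes were called (13.1% higher, 10.5% lower) and 41.6% did not overlap. The members' median difference on the deposited log2 scale was 0.20 for each inhibitor, and that of all tested genes was −0.01 for UNC1999 and 0.01 for JQEZ5. Both inhibitors were compared with the same 3 DMSO libraries.

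Csf1r was at 6661, 6736 and 6581 normalised counts in DMSO, at 7842, 7627 and 7618 in JQEZ5 and at 12029.8, 12268 and 12206 in UNC1999. The 3 groups stood apart, with DMSO lowest and UNC1999 highest. The ratio of mean normalised counts to DMSO was 1.83 under UNC1999 (log2 difference 0.85, SE 0.03; limma adjusted p = 3.97e-13) and 1.16 under JQEZ5 (0.20, SE 0.03; adjusted p = 2.74e-05).

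Kit went another way. It was at 2042, 1964 and 2034 normalised counts in DMSO, at 2388, 2369 and 2362 in JQEZ5 and at 1926, 2019.8 and 2049 in UNC1999. The UNC1999 libraries overlapped DMSO, and all JQEZ5 libraries lay above both. JQEZ5 raised Kit 1.18-fold (log2 difference 0.22, SE 0.03; limma adjusted p = 1.53e-04), whereas the UNC1999 difference was −0.01 with a 95% interval of −0.08 to 0.06 (adjusted p = 0.823).

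Flt3 was close to silent, with 6 to 11 reads in the DMSO libraries, 2 to 6 in JQEZ5 and 0 to 3 in UNC1999. It was under the filter on low values, and in the fit of all genes its UNC1999 difference was −0.23 (limma adjusted p = 0.0363) and its JQEZ5 difference −0.13 (adjusted p = 0.317). The UNC1999 call on these few reads was lost without any 1 of the DMSO libraries (adjusted p = 0.0525 to 0.120). The library with 0 reads allows up to 3 by counting error, so no fold is given.

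Csf3r, the granulocyte growth factor receptor, was at 1547, 1560.0 and 1555 normalised counts in DMSO, at 1312, 1329 and 1327 in JQEZ5 and at 1463, 1444 and 1427 in UNC1999. The groups did not overlap, and JQEZ5 was lowest. The log2 difference was −0.20 under JQEZ5 (SE 0.03; limma adjusted p = 2.05e-04) and −0.09 under UNC1999 (SE 0.03; adjusted p = 0.0248). The UNC1999 call was lost without DMSO replicate 1, 2 or 3 or UNC1999 replicate 2 (adjusted p = 0.0507, 0.0685, 0.0671 and 0.0550).

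The alpha chains moved little. Csf2ra was at 1175, 1240.4 and 1268 normalised counts in DMSO, at 1417, 1108 and 1334 in JQEZ5 and at 1459, 1451 and 1431 in UNC1999. UNC1999 lay above DMSO in all libraries (ratio 1.18, log2 difference 0.20, SE 0.06; limma adjusted p = 0.00915), while the JQEZ5 libraries scattered around DMSO (adjusted p = 0.575). Without JQEZ5 replicate 2, the lowest of them, Csf2ra passed the test for JQEZ5 (log2 difference 0.14, adjusted p = 0.0263). Il3ra, at 61.3 to 99.9 normalised counts in these 9 libraries, overlapped between all groups (differences from DMSO −0.04 and −0.02; adjusted p = 0.694 and 0.915).

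Both beta chains rose under both inhibitors, and Csf2rb2 had the largest ratio to DMSO among the tested members in each. The interleukin-3 beta chain Csf2rb2 was at 845, 837 and 859 normalised counts in DMSO, at 1363, 1320.3 and 1304 in JQEZ5 and at 2082, 2155 and 2075 in UNC1999. No library of 1 group reached another group. The ratio to DMSO was 2.48 under UNC1999 (log2 difference 1.12, SE 0.03; limma adjusted p = 3.57e-13) and 1.57 under JQEZ5 (0.54, SE 0.03; adjusted p = 1.12e-08). The common chain Csf2rb was at 5046, 5109 and 5097 in DMSO, at 6402, 6241 and 6298 in JQEZ5 and at 8689, 8567 and 8013 in UNC1999. These groups were apart as well, with ratios of 1.66 (adjusted p = 4.13e-11) and 1.24 (adjusted p = 3.15e-06). The sum of the pair was 1.77 times DMSO under UNC1999 and 1.29 times under JQEZ5. The share of Csf2rb2 in that sum was 14.1 to 14.4% in DMSO, 17.2 to 17.6% in JQEZ5 and 19.3 to 20.6% in UNC1999.

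At the matched dose and time, UNC1999 was compared directly with JQEZ5 for the 7 tested members, of which 4 were higher under UNC1999 and 1 lower (36.4% of all genes were called, 18.7% higher and 17.7% lower, and 45.2% did not overlap). Csf1r was 1.58-fold higher (log2 difference 0.65, SE 0.03; limma adjusted p = 1.23e-10), Csf2rb2 1.58-fold (0.58, SE 0.03; adjusted p = 6.28e-09) and Csf2rb 1.33-fold (0.40, SE 0.03; adjusted p = 1.33e-07). Csf3r was 1.09-fold higher (0.11, SE 0.03; adjusted p = 0.0127), and Kit was lower, with a difference of −0.23 (SE 0.03; adjusted p = 6.97e-05). Csf2ra missed the threshold, with a difference of 0.15 and a 95% interval of 0.03 to 0.28 (adjusted p = 0.0534). It passed under 2 log2 units of filter (0.0441), median centring (0.0451) and without JQEZ5 replicate 1 (0.00939). Il3ra differed by −0.02, with an interval of −0.18 to 0.14.

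**Figure D2:**
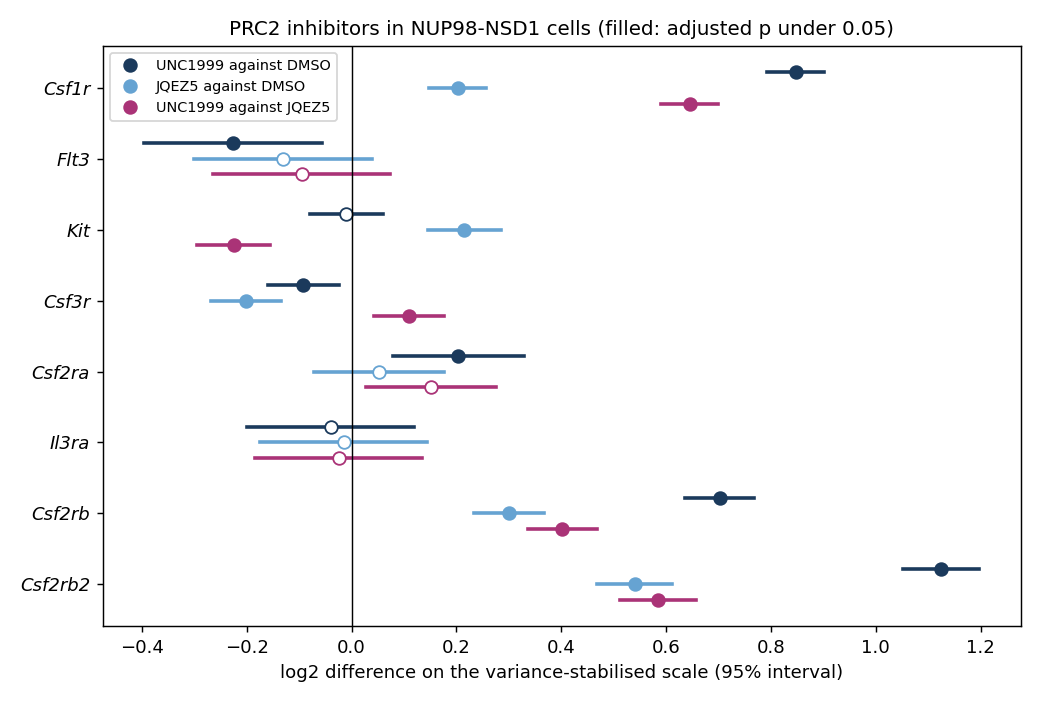
Log2 differences of the 8 receptor genes for UNC1999 against DMSO, JQEZ5 against DMSO and UNC1999 against JQEZ5, as points with 95% intervals on the deposited log2 scale; filled points passed the test and hollow points did not. Csf2rb2 reaches 1.12 and Csf1r 0.85 under UNC1999, and Kit lies at 0.22 for JQEZ5 and −0.01 for UNC1999.

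Of the 8 ligand genes, Csf1 and Flt3l had rows that could be tested. Csf1, which encodes the ligand of Csf1r, was at 64.1, 67.9 and 69.9 normalised counts in DMSO, at 214, 219 and 219.5 in JQEZ5 and at 509, 467 and 365 in UNC1999. It rose 6.64-fold under UNC1999 (limma adjusted p = 1.44e-10) and 3.23-fold under JQEZ5 (adjusted p = 7.36e-07). Flt3l averaged 74.2, 76.1 and 73.0 in DMSO, JQEZ5 and UNC1999 and was not called (limma adjusted p = 0.940 and 0.917). The genes for stem cell factor, interleukin-3 and granulocyte-macrophage colony-stimulating factor had no row in this table.

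Over all tested genes, 23.9% rose and 24% fell under UNC1999, and 13.1% rose and 10.5% fell under JQEZ5. Of 38 tested kinases, adaptors and signal carriers, 15 rose and 6 fell under UNC1999, and 5 rose and 7 fell under JQEZ5. The PI3-kinase genes Pik3r5 and Pik3cb rose 2.52-fold and 2.16-fold under UNC1999, and the kinases Syk and Jak1 rose 1.32-fold and 1.25-fold. Of 25 negative regulators, 8 rose and 3 fell under UNC1999 (4 and 8 under JQEZ5), with the phosphatase gene Ptprj at 2.05 times and the feedback inhibitor Socs3 at 1.59 times DMSO. Of 24 genes known to be induced by STAT5 or ERK signalling, 15 rose and 2 fell under UNC1999, with a median difference of 0.25, and 12 rose and 3 fell under JQEZ5, with a median of 0.12. Among them the survival gene Mcl1 rose 1.52-fold and cyclin gene Ccnd2 1.90-fold under UNC1999. Of 17 other cytokine receptor subunits, 9 rose and 4 fell under UNC1999 (4 and 6 under JQEZ5), led by the tumour necrosis factor receptor gene Tnfrsf1b at 1.78-fold. Of 16 transcription factors known to bind receptor promoters, 4 rose and 8 fell under UNC1999 (4 and 6 under JQEZ5), with Hoxa9 at 0.66 times and Ets2 at 1.68 times DMSO. The medians of these other 4 lists lay between −0.10 and 0.13 under UNC1999 and between −0.06 and −0.01 under JQEZ5.

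Markers of more mature myeloid cells moved in the same libraries. The summed level of the monocyte and macrophage list (8 of 9 genes in the table, Csf1r left out) was 11350 to 11567 normalised counts in DMSO, 15143 to 15477 in JQEZ5 and 19854 to 20323 in UNC1999. For the neutrophil list (7 of 10 genes, Csf3r left out) it was 2935 to 3003, 4070 to 4351 and 9378 to 9839, of which Mmp8 made up 1929, 3138 and 7735. The megakaryocyte sum (5 of 7 genes) was 304 to 347, 927 to 999 and 1922 to 1964, of which Vwf made up 252, 925 and 1872. Of 8 tested monocyte and macrophage genes, 6 rose and 1 fell under UNC1999, and 5 rose and 3 fell under JQEZ5. Of 5 tested neutrophil genes, 4 rose and 1 fell under UNC1999, and 3 rose and 1 fell under JQEZ5. Cxcr2 was at 797 in DMSO, 228 in JQEZ5 and 181 in UNC1999. The part of such cells in the receptor differences was not tested. In bulk RNA such as this, more cells of a type and more RNA per cell cannot be told apart.

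The second comparison asked how the receptors changed when Kdm5b was lowered in NUP98-NSD1 cells. Csf1r, Csf3r and Il3ra fell and Csf2rb rose, and the rise of Csf2rb was 1.26-fold. Of the 7 members tested 1 rose and 3 fell, where 32.5% of all 10810 genes were called (15% higher, 17.4% lower) and 49% did not overlap between the groups. The 3 that fell include Il3ra, which passed the filter only through shEV, so its fall had to appear. The members' median difference was −0.02 and that of all genes −0.01, and members moved both ways.

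Csf1r was at 6146, 6065 and 6159 normalised counts in shEV and at 4472, 4562 and 5274 in shKdm5b. The groups did not overlap, and the knockdown libraries were the more scattered. The log2 difference was −0.34 (SE 0.06; limma adjusted p = 0.00301). Kit was at 8636, 8946 and 8557 in shEV and at 7916, 9043 and 10059.9 in shKdm5b, so the knockdown libraries lay on both sides of the control (difference 0.04, 95% interval −0.13 to 0.21, adjusted p = 0.717). Without shKdm5b replicate 1, the lowest, Kit passed the test with a difference of 0.13 (adjusted p = 0.0402). Flt3 had 4 to 9 reads in shEV and 6 to 17 in shKdm5b and did not pass in the fit of all genes (adjusted p = 0.110).

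Csf3r was at 3204, 3154 and 3276 normalised counts in shEV and at 2584, 2571 and 2613 in shKdm5b, 2 tight and separate groups (log2 difference −0.28, SE 0.04; limma adjusted p = 8.43e-04). The alpha chain Il3ra was at 111, 117 and 92.5 in shEV and at 74.2, 51.4 and 42.3 in shKdm5b. It passed the filter only through shEV, so its fall (−0.30, SE 0.06; adjusted p = 0.00834) is one that a gene kept in this way had to show. Csf2ra, at 2574 to 2741 in shEV and 2478 to 2962 in shKdm5b, overlapped (difference 0.03, 95% interval −0.10 to 0.17).

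The beta chains split in the knockdown. Csf2rb was at 3000.5, 2992 and 2934 normalised counts in shEV and at 3705, 3763 and 3795 in shKdm5b, and it rose 1.26-fold (log2 difference 0.31, SE 0.04; limma adjusted p = 4.85e-04). Csf2rb2 was at 405, 376 and 362 in shEV and at 365, 377 and 374 in shKdm5b, within the control range (difference −0.02, 95% interval −0.12 to 0.08). The share of Csf2rb2 in the sum of the pair was 10.97 to 11.90% in shEV and 8.97 to 9.12% in shKdm5b, and the sum was 1.23 times the control. Without shKdm5b replicate 1 the called differences were −0.30 for Csf1r (adjusted p = 0.00126), −0.28 for Csf3r (1.32e-04), −0.36 for Il3ra (8.72e-04) and 0.31 for Csf2rb (5.18e-05).

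**Figure D3:**
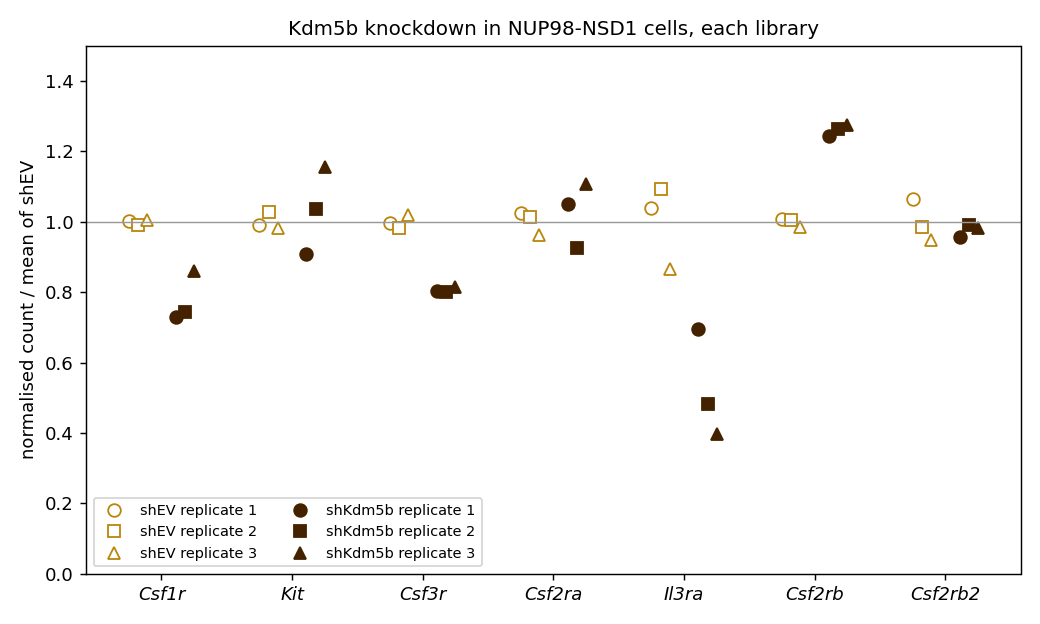
Receptor genes in the Kdm5b knockdown of NUP98-NSD1 cells, shKdm5b and shEV (3 libraries each). Points are libraries, as the normalised count divided by the mean of shEV for that gene, and Flt3 is left out. The tests, which are not drawn, gave log2 differences of 0.31 for Csf2rb and between −0.34 and −0.28 for Csf1r, Il3ra and Csf3r. The 95% interval of Kit covered 0.

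Over all tested genes 15% rose and 17.4% fell. Of 36 signal carriers 4 rose and 10 fell, with Pik3r5 at 0.61 times and Syk at 0.72 times shEV. Of 24 negative regulators 3 rose and 4 fell, with the phosphatase gene Ptpn6 at 0.77 times shEV. Of 24 STAT5- or ERK-induced genes 5 rose and 6 fell: the kinase gene Pim1 rose 1.58-fold and its relative Pim2 was at 0.66 times the control. Other receptor subunits rose in 5 of 14 and fell in 1, with the interferon-gamma receptor gene Ifngr1 at 1.36-fold. Of 15 transcription factors 5 rose and 2 fell, led by Irf8, a monocyte regulator, at 1.56-fold. No ligand gene was tested. Csf1 was at 35.6 to 55.9 normalised counts in shEV and 59.6 to 75.1 in shKdm5b, under the filter of 86.6. List medians lay between −0.05 and 0.09. Without shKdm5b replicate 1, 12 signal carriers rose and 14 fell, 7 negative regulators rose and 7 fell, and 6 transcription factors rose and 4 fell. Calls over all genes grew as well, to 2581 higher and 2998 lower of 10877, from 1624 and 1885 of 10810.

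The monocyte and macrophage sum (8 of 9 genes, Csf1r left out) was 11454 to 11601 in shEV and 16401 to 17953 in shKdm5b, with Ccr2 at 6.64 times and Adgre1 at 0.54 times the control. Although this sum was higher, 3 of the 8 tested genes rose and 5 fell. The neutrophil sum (6 of 10 genes, Csf3r left out) was 767 to 890 and 1488 to 1628, of which Mmp8 made up 413 and 925, and that of the basophil and eosinophil list (2 of 9 genes) was 85.1 to 102 and 2499 to 2840. The basophil protease gene Mcpt8 carried most of the last, at 72.0 and 2644 normalised counts. The part of these cells and of sequencing depth in the receptor differences was not tested.

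The third set of comparisons asked what added Kdm5b did to the receptors in MLL-AF9 cells, and whether the demethylase-dead form differed. In WT cells all 8 members were called: Csf1r, Csf3r, both alpha chains and both beta chains rose, and Flt3 and Kit fell. Il3ra passed the filter only through WT, so its rise in WT had to appear, and the WT count and median include it. In H499A cells Flt3 and Kit fell and 5 rose, with Csf2rb2 not called. The background was high, with 62.2% of all 9458 genes called for WT (29.8% higher, 32.4% lower) and 49.6% for H499A (22.7% higher, 26.9% lower). Groups of 2 libraries did not overlap for 79.4% of genes for WT and 75% for H499A. The members' median difference was 0.51 for WT and 0.18 for H499A, and that of all genes was −0.01 for both. WT and H499A were compared with the same 2 EV libraries.

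Csf1r was at 1891 and 1636 normalised counts in EV, at 4839 and 4785 in H499A and at 7504 and 7674 in WT. These 3 levels stood far apart. The ratio to EV was 4.30 for WT (log2 difference 1.82, SE 0.03; limma adjusted p = 2.09e-24) and 2.73 for H499A (1.22, SE 0.03; adjusted p = 1.54e-20). Flt3, the progenitor receptor, was the mirror case, at 1428 and 1357 in EV, 741 and 712 in H499A and 491 and 469 in WT. WT cells had 0.34 times the EV level (difference −0.99, SE 0.04; adjusted p = 1.51e-18) and H499A cells 0.52 times (−0.64, SE 0.04; adjusted p = 2.67e-14).

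Kit was at 4399.8 and 4244 normalised counts in EV, at 3523 and 3384 in H499A and at 3451 and 3353 in WT. Kit fell in WT (log2 difference −0.30, SE 0.03; limma adjusted p = 3.61e-10) and in H499A (−0.28, SE 0.03; adjusted p = 1.77e-09), and the libraries of those 2 groups overlapped.

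Csf3r was at 1360.1 and 1384 normalised counts in EV, at 1959 and 2166 in H499A and at 2754 and 2884 in WT, which made 2.05 times EV for WT (limma adjusted p = 2.55e-17) and 1.503 times for H499A (1.22e-11). Csf2ra was at 381 and 363 in EV, at 532 and 512 in H499A and at 730.0 and 696 in WT, or 1.41 times EV for H499A (limma adjusted p = 2.01e-06) and 1.92 times for WT (3.52e-12). Il3ra, the least abundant of the 3, was at 90.7 and 76.6 in EV, at 115 and 113 in H499A and at 234 and 239 in WT. In each case EV was lowest, H499A lay between and WT was highest, with no overlap. Il3ra passed the filter only through WT, so its rise in WT (2.83 times EV, adjusted p = 9.39e-11) had to appear. Its H499A call (1.36 times EV, log2 difference 0.13, limma adjusted p = 0.0148) was lost without EV replicate 2 (0.154), H499A replicate 1 (0.0853) or H499A replicate 2 (0.0635), and its sign turned under quantile normalisation (difference −0.01, adjusted p = 0.855).

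The beta chains again differed from each other. Csf2rb was at 2176 and 2094 normalised counts in EV, at 2620.4 and 2582 in H499A and at 3788 and 3699.6 in WT, or 1.22 times EV for H499A (limma adjusted p = 6.88e-08) and 1.75 times for WT (2.20e-17). Csf2rb2 was at 628 and 609 in EV, at 663 and 604 in H499A and at 1005 and 1011 in WT. H499A libraries lay on both sides of EV (log2 difference 0.02, 95% interval −0.05 to 0.09, limma adjusted p = 0.669), while WT was 1.63 times EV (0.45, SE 0.04; adjusted p = 4.09e-11). The sum of the pair was 1.73 times EV in WT and 1.17 times in H499A. The share of Csf2rb2 was 22.41 to 22.51% in EV, 18.96 to 20.19% in H499A and 20.97 to 21.46% in WT.

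Tested directly, WT exceeded H499A for 6 of the 8 members and was lower for 1 (54.4% of all genes were called, 28.2% higher and 26.3% lower, and 75.8% did not overlap). The ratio of WT to H499A was 1.58 for Csf1r (limma adjusted p = 5.29e-14), 1.59 for Csf2rb2 (adjusted p = 1.68e-10), 1.44 for Csf2rb (2.96e-13), 1.37 for Csf3r (5.69e-10) and Csf2ra (1.35e-06) and 2.07 for Il3ra (3.19e-08). Il3ra passed the filter only through WT here too, so its difference had to appear. Flt3 was at 0.66 times H499A (log2 difference −0.35, SE 0.04; adjusted p = 4.97e-09). Kit did not pass, with a difference of −0.02 and a 95% interval of −0.07 to 0.04 (adjusted p = 0.587). The count of the mouse Kdm5b gene was 4.805 times as high in WT as in H499A, so the activity of the protein and its dose cannot be told apart in these differences.

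**Figure D4:**
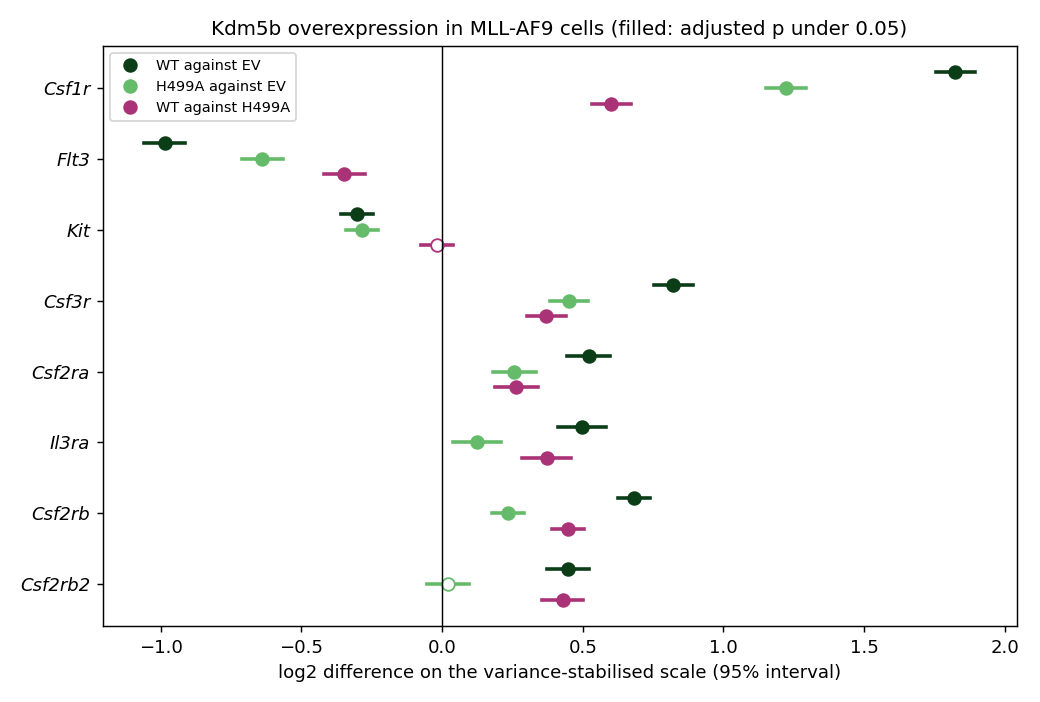
Log2 differences of the 8 receptor genes for WT against EV, H499A against EV and WT against H499A, as points with 95% intervals on the deposited log2 scale; filled points passed the test and hollow points did not. Csf1r reaches 1.82 and Flt3 −0.99 in WT against EV, and Kit lies at −0.02 in WT against H499A.

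Over all tested genes, 29.8% rose and 32.4% fell in WT, and 22.7% rose and 26.9% fell in H499A. Of 37 signal carriers, 16 rose and 11 fell in WT, and 12 rose and 11 fell in H499A. The SRC-family kinase gene Lyn rose 1.48-fold in WT and 1.27-fold in H499A. Of 24 negative regulators, 10 rose and 6 fell in WT (7 and 5 in H499A), with Ptprj at 2.23 times and the adaptor gene Dok2 at 0.45 times EV in WT. Of 23 STAT5- or ERK-induced genes, 6 rose and 17 fell in WT, with a median of −0.19, and 5 rose and 12 fell in H499A, with a median of −0.16. Cyclin genes were among those that fell: Ccnd1 was at 0.51 times EV in WT and 0.61 times in H499A, and Ccnd2 at 0.63 and 0.54 times. Of 16 other cytokine receptor subunits, 13 rose and 1 fell in WT and 12 rose and 1 fell in H499A. Il6st, the shared chain of the interleukin-6 family, rose 1.83-fold and 2.14-fold, and Il1r1 was at 0.12 times EV in H499A. Of 17 transcription factors, 7 rose and 9 fell in WT and 8 rose and 7 fell in H499A. Cebpb rose 1.80-fold and 2.45-fold, Spi1 rose 1.40-fold in WT, and Cebpa was at 0.40 times EV in H499A. The medians of these other 4 lists lay between −0.13 and 0.31 in WT and between −0.01 and 0.15 in H499A. Between WT and H499A, 10 of 16 other receptor subunits were higher in WT and 2 lower. The shares over all genes were 28.2% higher and 26.3% lower. Cebpa was 2.19 times as high in WT as in H499A.

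The monocyte and macrophage sum (8 of 9 genes, Csf1r left out) was 5884 to 6256 normalised counts in EV, 13790 to 13918 in H499A and 15465 to 15644 in WT. Single genes did not all follow this order. Of the 7 tested, 6 rose and 1 fell in WT against EV, and 5 were higher and 2 lower in WT than in H499A. Ly6c2 was at 790, 4450 and 975 in EV, H499A and WT, and Fcgr1 at 53.0, 156.5 and 29.9. The neutrophil sum (7 of 10 genes, Csf3r left out) was 525 to 536, 1137 to 1176 and 1680 to 1691, of which Mmp8 made up 361, 999.7 and 1647. Ngp, S100a8 and S100a9, which define neutrophils, were at 0 in both WT libraries. The basophil and eosinophil sum (3 of 9 genes) ran the other way. It was 1666 to 1668 in EV, 994 to 1030 in H499A and 942 to 1009 in WT. Gata2, also on the mast list, made up 1408, 924 and 910 of it. Mcpt8 was at 244, 77.5 and 43.4, and Ms4a2 at 15.7, 10.4 and 22.4. The part of such cells in the receptor differences was not tested.

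Genes whose levels ran most like a receptor were ranked by Pearson's r over the 21 libraries, each value taken as its difference from the mean of its own table, among 8419 genes. These libraries share tables and groups, so r is a description. Csf1r ran with Atp6v1b2 (0.990), a subunit of the lysosomal proton pump, the fractalkine receptor gene Cx3cr1 (0.988) and Myo1f (0.983). Csf2rb ran with Tnfrsf1b (0.983), Mmp8 (0.969) and Hk3 (0.957), and Csf2rb2 with Rnf149 (0.976) and Exoc3 (0.972). Csf3r ran with Pld4 (0.949), G6pdx (0.946) and Lyn (0.945). Csf2ra ran with Man2b2 (0.940), Fes (0.936) and Fam214b (0.927). Kit had less close companions, Xpot (0.869), Ppp3cb (0.826) and Naa50 (0.819), as had Il3ra, with Slc39a7 (0.887), Acad10 (0.881) and Acad12 (0.873). Among the members, r was 0.88 for Csf2rb with Csf2rb2, whose reads can be shared, 0.86 for Csf1r with Csf2ra, −0.70 for Csf3r with Kit and −0.60 for Csf1r with Kit.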

How the data were processed

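RNA was extracted with Qiagen RNeasy and sequenced from 21 libraries, per the labels' protocols, with Truseq v2 or NEBNext Ultra II kits, and the labels do not tie libraries to kits. Reads were handled with STAR 2.4.2, Salmon 0.1.19 and DESeq2 1.38.2 on mm10 (GRCm38.p4), per the submitters' processing notes. The deposited log2 values are variance-stabilised by the authors, 1 table per experiment, and low counts are compressed towards the lowest value of each table (6.88 in the inhibitor, 7.44 in the knockdown and 8.18 in the overexpression table).

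The transformation was undone with the dispersion that this lowest value implies. The resulting normalised counts were, in each library, integer multiples of a common step (100% of values, tolerance 0.05), giving reads and depth. Folds are ratios of mean normalised counts, and per-length levels use GENCODE M21 exon lengths. Intervals are limma's, and read numbers carry counting error besides.

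Tests used limma 3.58.1 on the deposited log2 values, with 1 mean per group, all groups of a table sharing the spread, a mean-variance trend and Benjamini-Hochberg adjustment over all tested genes (call at 0.05). Genes had to lie 1 log2 unit above the lowest value (59.0, 86.6 and 145 normalised counts) in at least the number of libraries that the table's smallest group has. A member under this filter was taken from a fit of all genes. On simulated counts with 200 changed genes, 64%, 44% and 76% of changes of log2 0.25 were called for UNC1999, shKdm5b and WT against controls. Of changes of 0.5, 80%, 82% and 96% were called. False calls among the unchanged genes numbered 10, 11 and 19. The data held far more called genes (5118, 3509 and 5881), so these rates may not carry over to them. Alternatives were other filters, scalings and spreads, the replicate number as a block, left-out libraries and limma-voom on the recovered reads.

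All 8 members are named in every comparison. From each pathway list up to 4 called genes with the lowest adjusted p could be named, and the 3 most correlated genes for each member tested in all tables. A few genes that this rule names are not reported here. The members and lists were chosen with earlier results of these data known, and lists were not tested as sets. The replicate numbers were not used to pair libraries in the main tests.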

Additional observations from a re-analysis of the deposited data

How the results depend on the processing

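The number of receptor genes called stayed within 1 of the reported count under all alternatives run. Leaving out 1 library gave 4 to 5 for UNC1999 against DMSO, 5 to 6 for JQEZ5 against DMSO, 5 to 6 for UNC1999 against JQEZ5, 4 to 5 for the knockdown, 8 for WT against EV, 6 to 7 for H499A against EV and 7 for WT against H499A. Of 900 values of single members under alternatives, 880 kept the call or its absence, 13 lost the call, 6 gained it and 1 lost it with a changed sign. Direction was compared only where the main fit or the alternative made a call. Sign changes of members called in neither, with differences near 0, were not counted. The counted sign change was that of Il3ra in H499A against EV, at −0.010 with quantile normalisation (adjusted p = 0.855), and the cause was not tested. The Flt3 call for UNC1999 was also lost with only the 2 groups compared (adjusted p = 0.0621), without JQEZ5 replicate 3 (0.0504) and without UNC1999 replicate 3 (0.107). With the replicate number as a block the counts were 5, 5, 6, 4, 8, 7 and 7 in the order above, and Csf2ra passed for UNC1999 against JQEZ5 (0.0489). Deviations of same-numbered libraries correlated at −0.08 to 0.16, −0.15 to 0.22 and −0.05 to −0.01 in the 3 tables. Differently numbered libraries gave −0.19 to 0.18, −0.16 to 0.26 and 0.01 to 0.05. No pairing by number was seen in the inhibitor and knockdown tables, though a weak pairing could be missed. With 2 libraries a group, the overexpression values mirror each other and cannot show pairing. Over all genes, the knockdown called 1624 genes higher and 1885 lower. Without shEV replicate 1, 2 or 3 these were 899 and 1015, 964 and 1048, or 951 and 1061, and without shKdm5b replicate 1 they were 2581 and 2998. A filter at 2 log2 units tested 5937 genes and called 1794 higher in place of 2817 for WT against EV, and 1736 in place of 2663 for WT against H499A. Of 1368 counts of list genes under alternatives, 63 moved by over 1.5 times. Depth limits Flt3 in NUP98-NSD1 cells most, with 17 reads or fewer per library.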

Other observations

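Kdm5b, the gene lowered or added in the other experiments, itself rose in NUP98-NSD1 cells under UNC1999, from 607 ± 14.9 to 886 ± 14.7 normalised counts (SD, n = 3; limma adjusted p = 1.65e-07), and was at 658 ± 8.64 under JQEZ5 (adjusted p = 0.112). The per-length level of Kdm5b was 2.42 RPKM in DMSO and 0.152 in shEV, both controls of the same fusion, with no test across the tables.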
